A study of Mus musculus with 6 samples.

Results

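The DLK, JNK and Sarm1 genes act in how a neuron reads and executes axon damage, and 10 of them were followed here in mouse retinal ganglion cells (RGCs), the neurons whose axons form the optic nerve. They were taken by gene symbol, with no cut on a measured value but with earlier results of these data known. The genes are Map3k12, Map3k13, Mapk8, Mapk9, Mapk10, Mapk8ip3, Sarm1, Nmnat1, Nmnat2 and Nmnat3. Of these, 9 were listed among the 17027 gene symbols of the isoform table, and 8 had a mean of at least 1 FPKM (sequenced fragments for each kilobase of transcript, scaled to the mapped fragments of a library) and were tested with 14390 genes in all. Nmnat1 stayed under that mean and is described without a test, and Nmnat3 is not analysed here. The samples were wild-type (WT) RGCs of strain C57/6NCrl taken on embryonic day 18 (E18), on day 5 after birth (P5) or at 8 weeks (Adult), and each age had 2 libraries. RGCs were captured with antibody to Thy1, a surface protein of these cells, after panning steps that removed macrophages; the sample protocol adds amacrine cells to what was removed. The labels name no lesion and no transgene, and panned cells have lost their axons beyond the eye. Whether the 2 libraries per age stem from different animals is not stated, so the p-values speak only to the spread among these libraries.

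Dual leucine zipper kinase (DLK, Map3k12) and its relative LZK (Map3k13) sense axon injury and activate, through MAP2 kinases, the c-Jun N-terminal kinases JNK1 (Mapk8), JNK2 (Mapk9) and JNK3 (Mapk10). The scaffold JIP3 (Mapk8ip3) links DLK and JNK to kinesin and dynein for transport along the axon, and in RGCs this cascade is known for driving cell death after optic nerve crush. Sarm1 encodes an NAD-cleaving enzyme that executes axon degeneration, and it is restrained by the NAD-synthesising enzyme of axons, Nmnat2; Nmnat1 encodes the nuclear and Nmnat3 the mitochondrial enzyme of the same reaction.

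The labelled cell type was checked against its markers. All 15 RGC markers were listed; they summed to 4673 and 5295 FPKM at E18, then 5038 and 4622 FPKM at P5, then 563 and 378 FPKM in Adult, and 14 of the 15 were called lower in Adult than at P5. Rod photoreceptor markers summed to 5553 and 656 FPKM in Adult replicates 1 and 2, against sums between 1.44 and 3.93 FPKM in the younger libraries, with 10 of 10 called higher in Adult than at P5. Markers of bipolar cells (7 of 7 tested), amacrine cells (7 of 7), cones (6 of 6) and Muller glia and astrocytes (7 of 7) were also called higher in Adult than at P5. Over all genes, 26.2% were called higher and 33.7% lower in that comparison. The rod and cone markers and some others reached the mean of 1 FPKM only through Adult. Their counts were thus largely fixed in advance. Vsx1 (bipolar) and Chat (amacrine) were not tested, and Chat had only 0.0296 and 0.0199 FPKM in Adult. In such bulk samples, fewer cells of a type and less RNA per cell cannot be told apart, and the part of the other cell types in each Adult result below was not tested. Retinal progenitor markers summed to 128 FPKM in E18 replicate 1 and to 12.0 FPKM in E18 replicate 2. Library depth is unknown, because no read counts come with FPKM.

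Between the ages, limma called 1 of the 8 tested genes higher and none lower at P5 against E18, where it called 10.5% of all genes (5.52% higher and 4.95% lower). At unadjusted limma p-values of 0.0251 and 0.0354, Mapk10 was higher and Mapk8 lower at P5. With TPM 2 of the 8 were called higher and 0 lower, beside 1479 and 468 of 15810 genes. Adult against P5, limma called 1 higher and 3 lower with the deposited FPKM, beside 59.8% of all genes (26.2% higher and 33.7% lower). Adult against E18, it called 2 higher and 2 lower, beside 59.7% of all genes (25.3% higher and 34.4% lower); without E18 replicate 2 or without Adult replicate 2, those 2 higher calls were lost. The shares of the axon degeneration genes (1, 4 and 4 of 8) are near those of all genes, so it is the single genes and their isoforms that are described. The median log2 change of the 8 genes was -0.12 for P5 against E18, -0.32 for Adult against P5 and -0.19 for Adult against E18, beside -0.03, -0.07 and -0.11 over all tested genes. The scaling between libraries bears on the direction of calls: Adult against P5, 3767 genes were called higher and 4843 lower with the deposited FPKM, 1878 and 8966 after rescaling to TPM (FPKM rescaled to one common total per library), and 5406 and 3336 after rescaling to protein-coding genes. TPM moved the median change of all genes to -0.71 and the protein-coding scaling moved it to 0.22. Of the 8 genes, 1 was called higher and 7 lower with TPM, and 3 higher and 2 lower with the protein-coding scaling. Relative to the median of all genes, the change Adult against P5 was between -1.32 and -1.18 under these scalings for Nmnat2 and -1.21 with FPKM, while that of Map3k13 was between 1.22 and 1.26. With quantile normalization these relative changes were smaller, -0.95 for Nmnat2 and 1.13 for Map3k13.

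**Figure D1:**
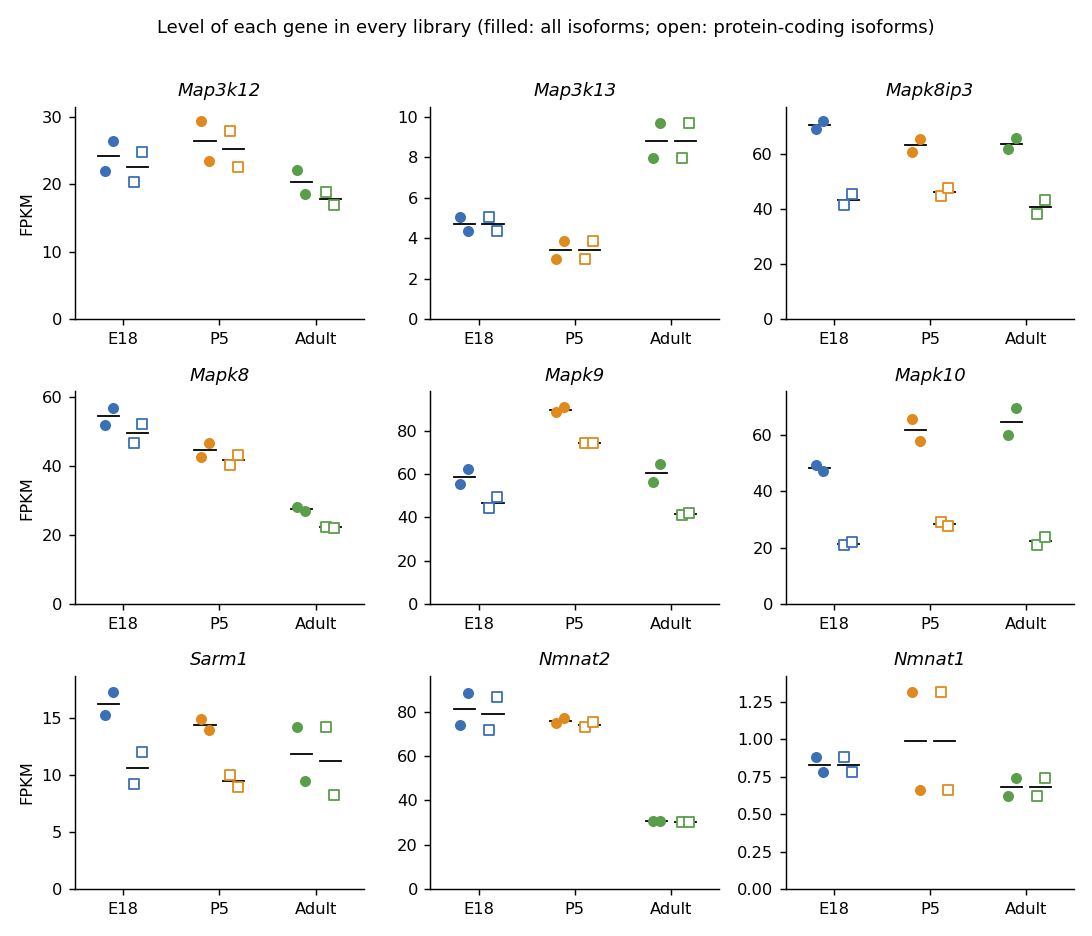
Level of 9 axon degeneration genes in every library, in FPKM on linear axes from 0, by age; filled circles sum all listed isoforms, open squares only isoforms annotated as protein-coding, and bars are means of 2 libraries. Nmnat2 and Mapk8 are lower in both Adult libraries (for Nmnat2, 30.9 and 30.5 FPKM) than in any younger one, Map3k13 is higher, and Mapk9 peaks at P5.

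Nmnat2, the labile NAD-synthesising enzyme that axons need in order to keep Sarm1 inactive, was called lower in Adult than at either younger age. It had 74.1 and 88.6 FPKM at E18, then 75.0 and 77.1 FPKM at P5, then 30.9 and 30.5 FPKM in Adult. Its gene spans chr1:152954993-153119261 (GRCm38, plus strand). The Adult libraries were nearly equal and lay below all 4 younger libraries, while those of P5 and E18 overlapped. Nmnat2 averaged 30.7 ± 0.232 FPKM in Adult and 76.0 ± 1.41 FPKM at P5 (SD, n = 2 each), 2.48-fold lower (log2 change -1.28 with an SE of 0.11 and an interval of -1.56 to -1.01; limma adjusted p = 0.000245). Against 81.4 ± 10.3 FPKM at E18 the level was 2.65-fold lower (log2 change -1.37, limma adjusted p = 0.000166). Both calls held under every alternative run, with adjusted p up to 0.0041 and 0.00467. The RGC marker sum was also low in both Adult libraries (563 and 378 FPKM), and amacrine (1093 and 1351 FPKM) and Muller glia and astrocyte sums (1490.5 and 1785 FPKM) were high in both; their part in the lower Nmnat2 level was not tested. Nearly all of its signal was 1 protein-coding transcript, which held between 96.7% and 98.5% of the gene's FPKM.

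Sarm1 itself, on the minus strand of chromosome 11 (78472330 to 78497754 in GRCm38), was not called in any comparison of the deposited FPKM. It had 15.2 and 17.3 FPKM at E18, then 14.9 and 13.9 FPKM at P5, then 14.2 and 9.50 FPKM in Adult. The Adult libraries spread widely, and only the lower one stood apart from P5. The log2 change was -0.29 for Adult against P5 (interval -0.75 to 0.18, limma adjusted p = 0.236) and -0.45 for Adult against E18 (interval -0.91 to 0.01, limma adjusted p = 0.0837). With TPM it was called lower in both (log2 change -1.01 against P5, limma adjusted p = 0.00534; -1.05 against E18, limma adjusted p = 0.00469), and with the protein-coding scaling the change against P5 was 0.02 (limma adjusted p = 0.938). Without Adult replicate 1 it was also called lower (-0.55 against P5, limma adjusted p = 0.0386; -0.72 against E18, limma adjusted p = 0.0189), and without Adult replicate 2 the change against P5 was -0.02 (limma adjusted p = 0.913). Sarm1 transcripts split into a protein-coding and an intron-retaining one with different patterns. The protein-coding transcript had 9.21 and 12.0 FPKM at E18, then 9.95 and 8.95 FPKM at P5, then 14.2 and 8.27 FPKM in Adult, so its Adult libraries spanned the range of the younger ones (log2 change Adult against P5 0.18, interval -0.38 to 0.75 on the sum of protein-coding isoforms). Rod marker sums also split between Adult replicates 1 and 2 (5553 and 656 FPKM), and the part of rods in this spread was not tested. The retained-intron transcript ENSMUST00000153534.1 had 6.03 and 5.28 FPKM at E18, then 4.99 and 4.94 FPKM at P5, then was listed at 0 in Adult replicate 1 and at 1.24 FPKM in Adult replicate 2. It was lower in Adult than at P5 (limma adjusted p = 0.00876 over all isoforms) and than at E18 (limma adjusted p = 0.00649), comparisons in which 43.3% and 44.7% of all isoforms were called. Leaving out either P5 library ended the call against P5 (adjusted p = 0.0558 and 0.0524), and leaving out E18 replicate 1 ended that against E18 (adjusted p = 0.0516).

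The ratio of Nmnat2 to Sarm1 does not depend on the scaling between libraries. It was 4.86 and 5.12 at E18, then 5.03 and 5.55 at P5, then 2.18 and 3.21 in Adult. Both Adult ratios lay below all younger ones, and with protein-coding isoforms the order was the same (2.14 and 3.63 in Adult, between 7.21 and 8.43 before). The ratio was not tested, and neither was the part of the other cell types in the Adult ratios. Nmnat1, the nuclear enzyme, was low throughout: 0.884 and 0.780 FPKM at E18, then 1.32 and 0.665 FPKM at P5, then 0.621 and 0.740 FPKM in Adult. The ages overlapped, and P5 library a alone stood above 1 FPKM. Nmnat2 exceeded Nmnat1 by a ratio between 41.3 and 49.7 in the Adult libraries and between 56.9 and 116 in the younger ones.

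LZK (Map3k13) was called higher in Adult than at either younger age. It had 5.04 and 4.38 FPKM at E18, then 2.97 and 3.87 FPKM at P5, then 7.96 and 9.67 FPKM in Adult. The Adult libraries lay above all younger ones, and those of P5 lay below those of E18. Map3k13 averaged 8.81 ± 1.21 FPKM in Adult and 3.42 ± 0.640 FPKM at P5 (SD, n = 2 each), with a log2 change of 1.15 (SE of 0.17, interval of 0.73 to 1.58, limma adjusted p = 0.00193), and this call held under every alternative. Against E18 the log2 change was 0.78 (limma adjusted p = 0.00912), a call lost with TPM (adjusted p = 0.283), without E18 replicate 2 (0.0769) and without Adult replicate 2 (0.0568). P5 against E18 it was -0.37 (limma adjusted p = 0.214). The gene, on the plus strand of chromosome 16 (21794346 to 21933439), was listed with 1 isoform, so no change of isoform could be seen.

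DLK (Map3k12) was expressed at a higher level than LZK at every age and was not called in any comparison of the deposited FPKM summed over all isoforms. It had 21.9 and 26.4 FPKM at E18, then 29.4 and 23.4 FPKM at P5, then 22.1 and 18.6 FPKM in Adult. The P5 and E18 libraries overlapped, and both Adult libraries lay just below those of P5. The log2 change Adult against P5 was -0.36 (interval -0.76 to 0.04, limma adjusted p = 0.104); summed over protein-coding isoforms alone it was -0.47 (interval -0.83 to -0.11, limma adjusted p = 0.0306). With TPM the sum of all isoforms was called lower in Adult (log2 change -1.10 against P5, limma adjusted p = 0.00136; -0.84 against E18, limma adjusted p = 0.00459). Within a library, the ratio of Map3k12 to Map3k13 was 4.34 and 6.02 at E18, then 9.90 and 6.04 at P5, then 2.77 and 1.92 in Adult. DLK RNA thus exceeded LZK RNA in all 6 libraries, by the smallest ratios in Adult.

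JIP3 (Mapk8ip3), the axonal transport scaffold of the cascade, differed little between the ages in deposited FPKM. It had 68.9 and 71.8 FPKM at E18, then 60.6 and 65.5 FPKM at P5, then 61.6 and 65.6 FPKM in Adult. The Adult and P5 libraries overlapped, and E18 lay slightly above both. The log2 change Adult against P5 was 0.01 (interval -0.22 to 0.25, limma adjusted p = 0.926), but it was called lower with TPM (-0.74) and higher with quantile normalization (0.36) and the protein-coding scaling (0.34). TPM also called it lower in Adult than at E18 (-0.76, limma adjusted p = 0.000568). The total held transcripts that moved in opposite directions. The 1 with the largest rise reached the mean of 1 FPKM only through Adult, so its call adds nothing to its values.

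The JNK genes differed from one another in their course. JNK1 (Mapk8) had 52.0 and 56.9 FPKM at E18, then 42.7 and 46.6 FPKM at P5, then 27.98 and 26.9 FPKM in Adult. No pair of ages overlapped. Mapk8 averaged 27.4 ± 0.766 FPKM in Adult and 44.7 ± 2.74 FPKM at P5 (SD, n = 2 each; log2 change -0.68 with an SE of 0.10 and an interval of -0.94 to -0.43; limma adjusted p = 0.00199), and the change from E18 was -0.96 on the log2 scale (limma adjusted p = 0.000464). Both calls held under every alternative run; P5 against E18 the log2 change of -0.28 was not called (limma adjusted p = 0.141).

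JNK2 (Mapk9) was the member called between P5 and E18. It had 55.5 and 62.1 FPKM at E18, then 88.4 and 91.0 FPKM at P5, then 56.3 and 64.6 FPKM in Adult. The P5 libraries stood above all others, and those of Adult and E18 overlapped. At P5 it averaged 89.7 ± 1.81 FPKM, against 58.8 ± 4.67 FPKM at E18 (SD, n = 2 each; log2 change 0.60 with an SE of 0.11 and an interval of 0.33 to 0.88; limma adjusted p = 0.0286). That call was lost in each of the 6 fits that left out 1 library and without the variance trend, with adjusted p up to 0.213. Adult against P5, Mapk9 fell by 0.56 on the log2 scale (SE of 0.11, interval of -0.84 to -0.29, limma adjusted p = 0.00584), a call lost with quantile normalization (adjusted p = 0.0975) and with the protein-coding scaling (adjusted p = 0.131). Adult against E18 it was not called (log2 change 0.04), while TPM called it lower (-0.58) and quantile normalization (0.37) and the protein-coding scaling (0.40) called it higher.

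JNK3 (Mapk10), the JNK gene mainly restricted to the nervous system, had 49.3 and 47.2 FPKM at E18, then 65.7 and 57.8 FPKM at P5, then 59.98 and 69.5 FPKM in Adult. P5 and Adult overlapped, and E18 lay below both. P5 against E18 the log2 change of 0.35 (interval of 0.06 to 0.63) was not called (limma adjusted p = 0.116). TPM called it higher (0.48, limma adjusted p = 0.0397). Adult against E18 the log2 change was 0.41 (SE of 0.12, interval of 0.13 to 0.70, limma adjusted p = 0.0234). The call was lost with TPM (log2 change -0.20), without E18 replicate 1 (adjusted p = 0.0805), without E18 replicate 2 (adjusted p = 0.119) and without Adult replicate 2 (adjusted p = 0.0988). Adult against P5 it was not called (log2 change 0.07), but it was called lower with TPM (-0.68) and higher with quantile normalization (0.41) and the protein-coding scaling (0.39). Of its FPKM, only between 34.3% and 47.9% lay in protein-coding isoforms. A 342-base non-coding transcript, ENSMUST00000135134.1, alone had between 20.5 and 29.3 FPKM. Summed over protein-coding isoforms, Mapk10 had 20.9 and 21.9 FPKM at E18, then 29.1 and 27.7 FPKM at P5, then 21.1 and 23.9 FPKM in Adult. On that sum, the change Adult against E18 was 0.06 on the log2 scale (limma adjusted p = 0.655) and the change Adult against P5 was -0.33 (limma adjusted p = 0.0428).

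**Figure D2:**
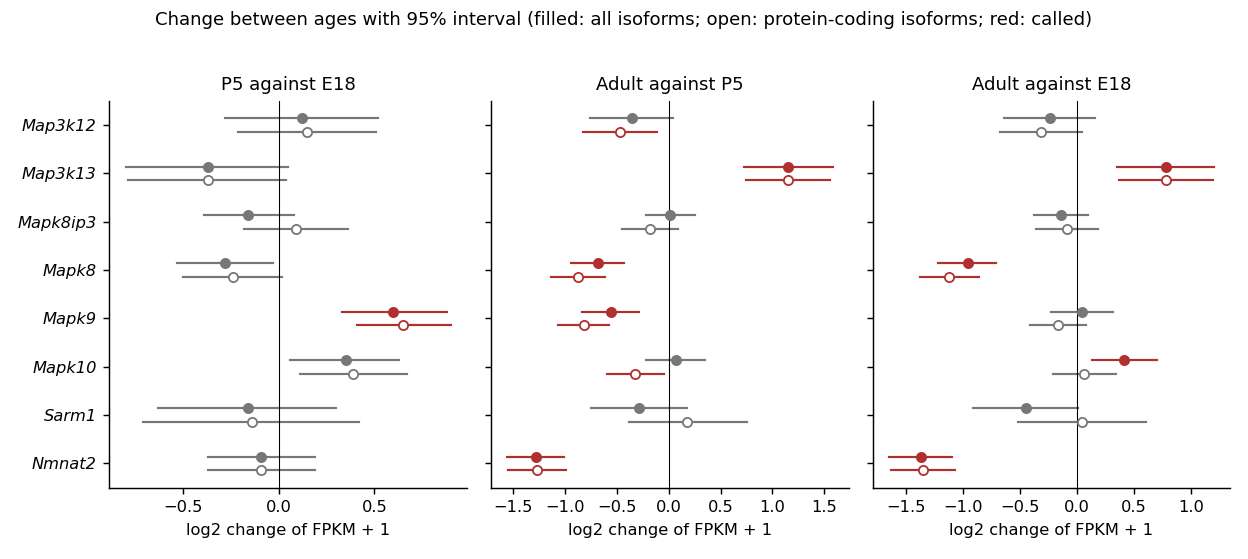
Log2 change of FPKM + 1 between ages for the 8 tested genes, with 95% intervals from limma; filled points sum all isoforms, open points only protein-coding isoforms, and red marks an adjusted p under 0.05. Nmnat2 and Mapk8 lie below 0 in both Adult panels whichever isoforms are summed, and Mapk10 Adult against E18 is called only with all isoforms.

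Taken as one pool, the JNK genes summed to 112 and 123 FPKM of protein-coding isoforms at E18, then 143 and 145 FPKM at P5, then 84.3 and 88.1 FPKM in Adult. In deposited FPKM the pool was largest in both P5 libraries and smallest in both Adult libraries. The pool was not summed under the other scalings, which changed the Adult calls of Mapk9 and Mapk10 above. Mapk8 supplied 41.7% and 42.2% of it at E18, then 28.1% and 29.7% at P5, then 26.5% and 25.1% in Adult. Mapk9 supplied 39.6% and 40.0% at E18, then 51.7% and 51.2% at P5, then 48.5% and 47.8% in Adult. These shares compare genes per transcript length within a library: among protein-coding isoforms, Mapk8 and Mapk9 were about level at E18, and Mapk9 led at both later ages. Mapk10 supplied 18.7% and 17.8% at E18, then 20.3% and 19.1% at P5, then 25.0% and 27.1% in Adult. Summed over all isoforms, the pool was 157 and 166 FPKM at E18, then 197 and 195 FPKM at P5, then 144 and 161 FPKM in Adult. In these deposited values P5 was still highest, but Adult and E18 overlapped. On that sum Mapk10 held the largest share in Adult (41.6% and 43.2%, beside 39.0% and 40.1% for Mapk9).

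**Figure D3:**
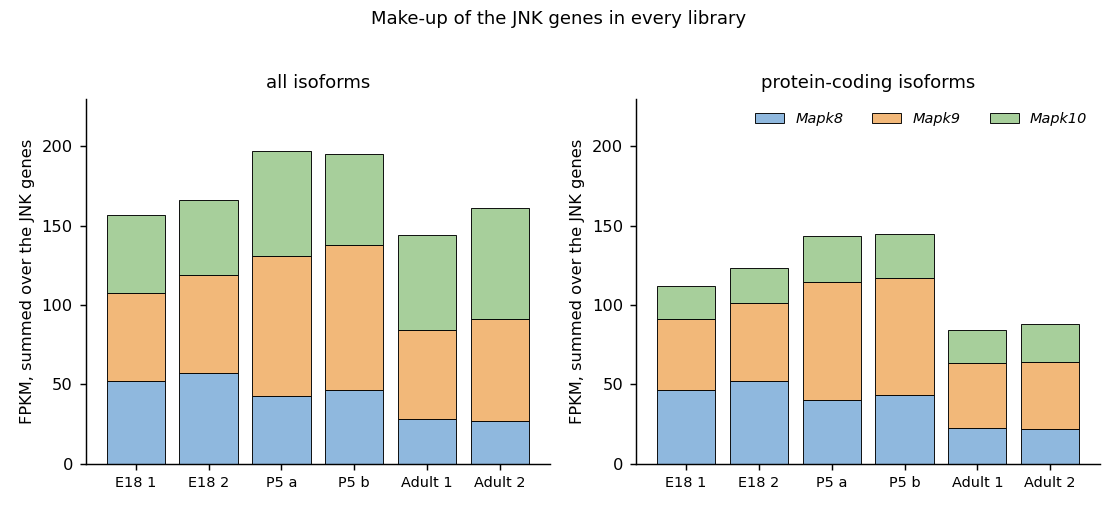
Stacked deposited FPKM of Mapk8, Mapk9 and Mapk10 in each of the 6 libraries, summed over all isoforms (left) and over protein-coding isoforms (right). In the right panel the stack is tallest at P5 (143 and 145 FPKM) and the Mapk8 part is smallest in Adult (22.3 and 22.1 FPKM).

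Each JNK gene holds a pair of neighbouring 72-base exons of which a transcript uses one. They encode a stretch of the kinase domain, and in human JNKs this choice is known to alter substrate binding. The pair of Mapk9 lies on the plus strand, the upstream exon at chr11:49873836-49873907 and the downstream exon at chr11:49874264-49874335 (GRCm38). The exons are shown because their use in Mapk9 differed with age; capitals mark the bases at which an exon differs from its partner in the same gene (25 of 72 in Mapk9, 65.3% identity).
Mapk9 upstream exon: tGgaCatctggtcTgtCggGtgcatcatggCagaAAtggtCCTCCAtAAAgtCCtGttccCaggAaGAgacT
Mapk9 downstream exon: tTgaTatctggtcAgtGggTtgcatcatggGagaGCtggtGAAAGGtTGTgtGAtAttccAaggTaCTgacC
Mapk8 upstream exon: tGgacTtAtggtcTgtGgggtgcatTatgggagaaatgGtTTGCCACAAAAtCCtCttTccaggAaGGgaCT
Mapk8 downstream exon: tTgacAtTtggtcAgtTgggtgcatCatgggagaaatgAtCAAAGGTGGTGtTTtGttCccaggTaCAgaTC
Mapk10 upstream exon: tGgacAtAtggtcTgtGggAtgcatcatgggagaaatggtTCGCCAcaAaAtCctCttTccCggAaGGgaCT
The exons of Mapk8 lie on the minus strand at chr14:33390673-33390744 (upstream) and chr14:33390242-33390313 (downstream), and the upstream exon of Mapk10 on the minus strand at chr5:102987203-102987274. Between genes, the upstream exons of Mapk8 and Mapk10 were 93.1% identical, those of Mapk8 and Mapk9 81.9% and those of Mapk9 and Mapk10 83.3%, so each upstream exon was closer to its counterparts than to its own partner.

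In Mapk9, transcripts with the downstream exon supplied 32.7% and 29.5% of the FPKM of annotated protein-coding isoforms at E18, then 25.6% and 20.2% at P5, then 59.8% and 63.5% in Adult. Both Adult shares lay above all younger ones, and those of P5 lay below those of E18. The mean share was 31.1% ± 2.27 at E18, 22.9% ± 3.82 at P5 and 61.6% ± 2.61 in Adult (SD, n = 2 each). An unannotated isoform, nearest to a transcript with the upstream exon, was left out; counted with it, the mean shares were 28.1% at E18, 22.1% at P5 and 51.7% in Adult. The share is taken within a gene and a library, so no scaling between libraries enters it. Markers of amacrine cells and of Muller glia and astrocytes were high in both Adult libraries (sums given above), and the part of such cells in the share was not tested.

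The levels behind that share moved unequally. The isoform with the downstream exon, ENSMUST00000020634.13, had 12.9 and 13.4 FPKM at E18, then 18.4 and 14.3 FPKM at P5, then 20.1 and 22.8 FPKM in Adult. Upstream-exon isoforms together had 26.5 and 32.0 FPKM at E18, then 53.5 and 56.6 FPKM at P5, then 13.6 and 13.2 FPKM in Adult. They stood highest in both P5 libraries and lowest in both Adult libraries. In the fit over all isoforms, the upstream-exon isoforms ENSMUST00000178543.7 and ENSMUST00000102778.7 fell by 2.16 and 1.55 on the log2 scale Adult against P5 (limma adjusted p = 0.000531 and 0.000913), and both calls held under all 8 alternatives run on isoforms. The downstream-exon isoform was called higher Adult against E18 (log2 change 0.67, limma adjusted p = 0.0193), a call lost in 4 of 8 alternatives, with TPM among them (log2 change 0.08, adjusted p = 0.688).

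Mapk8 did not share this course. Its downstream-exon transcript supplied 9.25% and 6.00% of protein-coding FPKM at E18, then 6.01% and 7.61% at P5, then 22.1% and 7.65% in Adult. Adult replicate 1 alone was high, and the other Adult library lay within the younger ones. Rod marker sums also split between Adult replicates 1 and 2 (5553 and 656 FPKM), and the part of rods in this share was not tested. Every listed Mapk10 transcript that spans the position carried the upstream exon; the table lists only isoforms that reached 1 FPKM in a library. The JNK transcripts also end in a long or a short C-terminus. The long end of Mapk9 made up 69.9% and 68.8% at E18, then 65.8% and 68.0% at P5, then 76.9% and 80.5% in Adult, above all younger libraries. That of Mapk8 made up 30.8% and 28.5% at E18, then 26.7% and 31.1% at P5, then 25.4% and 23.9% in Adult, below all younger libraries. That of Mapk10 lay between 28.8% and 42.1% with the ages overlapping.

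The scaffold gene Mapk8ip3, on the minus strand of chromosome 17, has a pair of microexons, one of 18 bases (chr17:24908411-24908428) and one of 24 bases (chr17:24920472-24920495), each a multiple of a codon. Both made up a smaller share of the transcripts in Adult, and they are shown in capitals with 20 bases of the transcript on each side.
Mapk8ip3 18-base microexon: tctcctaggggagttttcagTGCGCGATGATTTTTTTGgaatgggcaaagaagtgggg
Mapk8ip3 24-base microexon: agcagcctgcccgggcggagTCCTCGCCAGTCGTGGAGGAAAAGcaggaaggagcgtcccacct
Transcripts with the 18-base microexon supplied 99.5% and 100.0% of the FPKM of annotated protein-coding isoforms at E18, then 99.8% and 96.9% at P5, then 82.8% and 85.6% in Adult. The 24-base microexon, carried by 1 listed transcript (ENSMUST00000117509.7), was in 69.99% and 69.98% at E18, then 65.8% and 66.6% at P5, then 46.9% and 52.3% in Adult. For both microexons the Adult shares lay below all younger ones. A 93-base extension of another exon went the other way, with means of 18.7% ± 1.01 at E18, 17.3% ± 1.16 at P5 and 33.9% ± 2.70 in Adult (SD, n = 2 each). The part of the other cell types, whose markers were high in Adult, in these shares was not tested.

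Single Mapk8ip3 transcripts moved in opposite directions. ENSMUST00000121787.7, which lacks the 18-base microexon, had 0.204 FPKM and 0 at E18, then 0 and 0.213 FPKM at P5, then 6.58 and 6.19 FPKM in Adult (Adult against P5 log2 change 2.74, limma adjusted p = 0.000619). It passed the mean of 1 FPKM only through its Adult libraries, so this call adds nothing to those values. ENSMUST00000121723.7, which has it, had 4.77 and 4.81 FPKM at E18, then 7.17 and 7.84 FPKM at P5, then 0 and 0.562 FPKM in Adult (log2 change -2.76, limma adjusted p = 0.00079). Each was at its extreme in both Adult libraries, and the call of ENSMUST00000121723.7 held under all 7 alternatives run for it. The main transcript ENSMUST00000117509.7 fell by 0.58 on the log2 scale Adult against P5 (limma adjusted p = 0.0249), a call that 5 of the 6 fits without 1 library lost. ENSMUST00000120035.7, which also has the 18-base microexon, was called higher Adult against P5 (log2 change 1.17, limma adjusted p = 0.0216). That call was lost with TPM (log2 change 0.61, limma adjusted p = 0.187). Over all the genes followed here, 41 of 54 listed isoforms were tested. Of these, limma called 0 P5 against E18 (beside 1.63% of all isoforms, 0.804% higher and 0.824% lower). Adult against P5, it called 5 higher and 11 lower (beside 43.3% of all, 19.2% higher and 24.1% lower), and Adult against E18, 7 higher and 9 lower (beside 44.7% of all, 17.9% higher and 26.8% lower). Both higher counts include ENSMUST00000121787.7, which was tested only through its Adult libraries. Every other higher call Adult against P5 was lost with TPM (limma adjusted p between 0.0722 and 0.665). At an unadjusted limma p under 0.05, 7 of the 41 passed P5 against E18. The same count over all isoforms was not made, so no background stands beside it. With TPM 2 were called, beside 916 isoforms in all.

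**Figure D4:**
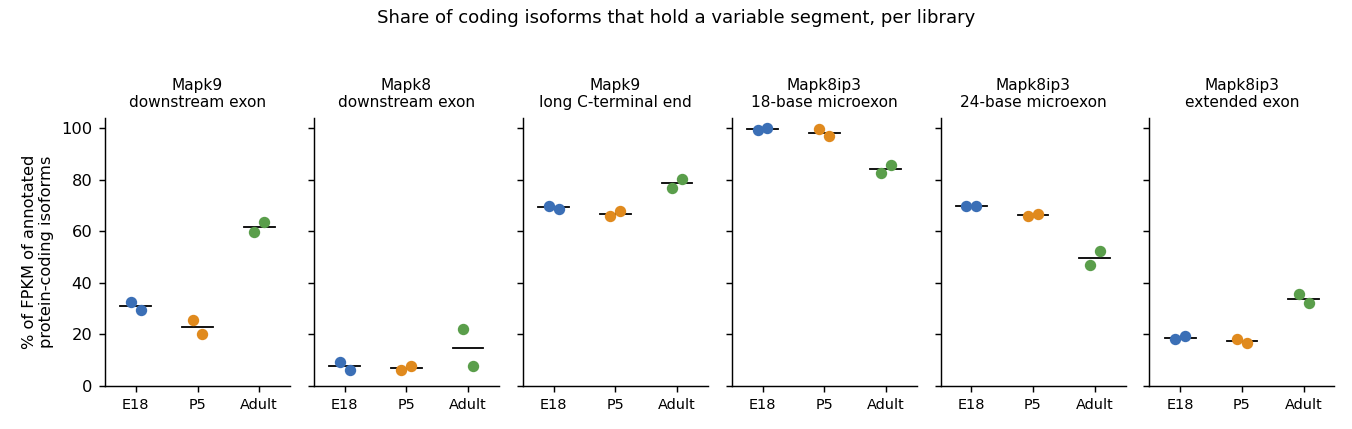
Share of the FPKM of annotated protein-coding isoforms that carries a variable segment, in percent, for each library (points) with the mean of 2 libraries (bars), by age. The Mapk9 downstream exon is at 59.8% and 63.5% in Adult and at most 32.7% before, both Mapk8ip3 microexons are lowest in Adult, and the Mapk8 downstream exon is high in 1 Adult library only.

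By level, summed over all isoforms, the order at E18 was Nmnat2, Mapk8ip3, Mapk9, Mapk8, Mapk10, Map3k12, Sarm1, Map3k13 and Nmnat1, in which only the libraries of the neighbours Mapk9 and Mapk8 overlapped. At P5 it was Mapk9, Nmnat2, Mapk8ip3, Mapk10, Mapk8, Map3k12, Sarm1, Map3k13 and Nmnat1, with overlap between Mapk8ip3 and Mapk10. In Adult it was Mapk10, Mapk8ip3, Mapk9, Nmnat2, Mapk8, Map3k12, Sarm1, Map3k13 and Nmnat1; Mapk10, Mapk8ip3 and Mapk9 overlapped in turn, and so did Sarm1 and Map3k13. With protein-coding isoforms alone, Mapk9 led in Adult (41.5 FPKM) and Mapk10 (22.5 FPKM) came after Nmnat2 (30.2 FPKM). The genes whose profile over the 6 libraries was nearest to that of Nmnat2, by the root mean square difference of centred log2(FPKM + 1) among 7432 genes, were Zbtb41 (0.039), Pak1 (0.042) and Vrk1 (0.045). Nearest to Sarm1 were Tex9 (0.061), Zfp946 (0.064) and Sppl2b (0.068), and nearest to Map3k12 was Elmod2 (0.057).

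Around these genes, a list of 36 genes of the DLK and JNK pathway was read from the same fit. P5 against E18, 3 were called higher and 9 lower, beside 5.52% of all genes higher and 4.95% lower (median log2 change -0.22, beside -0.03 over all genes). JNK phosphatases, which switch the kinases off, made up 4 of the 9, out of 5 tested: Dusp4 had 19.4 and 24.2 FPKM at P5, against 52.7 and 58.5 FPKM at E18 (log2 change -1.32, limma adjusted p = 0.0145), and Dusp1, Dusp8 and Dusp16 were also called lower. Transcription factors that answer to stress or JNK signalling were called lower in 4 of 10 cases: Sox11 had 32.7 and 41.8 FPKM at P5, against 125 and 128 FPKM at E18 (log2 change -1.74, limma adjusted p = 0.00681), and Atf4, Junb and Ddit3 were lower too, while Mef2a was higher. Map4k4, a kinase upstream of DLK, had 56.6 and 70.3 FPKM at P5, against 114 and 107 FPKM at E18 (log2 change -0.80, limma adjusted p = 0.0237), and Map2k4 and Map3k5 were higher. Against these 12 calls, 0 were made in a fit that lacked either E18 replicate or P5 library a, and 6 in the fit that lacked P5 library b.

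Adult against P5, 9 of the 36 were called higher and 9 lower, beside 26.2% of all genes higher and 33.7% lower. Neither count stood above the background. The median log2 change was -0.02, beside -0.07 over all genes. TPM called 6 higher and 21 lower, beside 1878 and 8966 of 15810 genes. The protein-coding scaling called 14 higher and 4 lower, beside 5406 and 3336 of 14512 genes. Map4k4 had 16.7 and 19.1 FPKM in Adult, against 56.6 and 70.3 FPKM at P5 (log2 change -1.76, limma adjusted p = 0.000161). Its relative Mink1 had 22.4 and 19.7 FPKM in Adult, against 9.42 and 12.2 FPKM at P5 (log2 change 0.91, limma adjusted p = 0.00284). Both Adult libraries lay outside the P5 range for each of these kinases, in opposite directions. The scaffold Spag9 (JIP4), the close relative of Mapk8ip3, had 44.2 and 46.5 FPKM in Adult, against 80.4 and 86.8 FPKM at P5 (log2 change -0.87, limma adjusted p = 0.000553), and Mapk8ip1 (JIP1) and Sh3rf1 were also called lower. Map2k7, which phosphorylates JNK, had 29.7 and 27.3 FPKM in Adult, against 12.0 and 17.4 FPKM at P5 (log2 change 0.93, limma adjusted p = 0.00458). Mef2d had 45.6 and 34.7 FPKM in Adult, against 6.85 and 8.501 FPKM at P5 (log2 change 2.24, limma adjusted p = 0.00015), while Sox11 had 0.624 and 0.911 FPKM in Adult. Of the genes called lower at P5 than at E18, the phosphatase gene Dusp1 had 23.5 and 47.8 FPKM in Adult, against 11.7 and 8.08 FPKM at P5, and was called higher (log2 change 1.69, limma adjusted p = 0.00536), as were the transcription factor genes Junb (1.68, limma adjusted p = 0.000148) and Ddit3 (1.77, limma adjusted p = 0.000123). The phosphatase gene Dusp10 was called higher too (2.02, limma adjusted p = 0.00159), while Dusp4 was called lower in Adult (-0.96, limma adjusted p = 0.00444). Adult against E18, 9 were called higher and 14 lower, beside 25.3% and 34.4% of all genes. With TPM there were 3 and 24, beside 2224 and 8542 of 15810 genes. With the protein-coding scaling there were 15 and 6, beside 5517 and 3309 of 14512 genes. Fits that left out 1 E18 or Adult library made fewer calls on the list.

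Of 28 genes of NAD metabolism and axon maintenance, 20 were tested. Adult against P5, 2 were called higher and 11 lower, beside 26.2% of all genes higher and 33.7% lower and 59.8% called in all. TPM called 0 higher and 15 lower, beside 1878 and 8966 of 15810 genes. The protein-coding scaling called 5 higher and 9 lower, beside 5406 and 3336 of 14512 genes. The median log2 change with the deposited FPKM was -0.53, beside -0.07 over all genes. The RGC markers fell in the same comparison, with a median log2 change of -3.68 over 15 genes, and their part in these changes was not tested. Stmn2, a tubulin-binding protein of axon growth that is also among the RGC markers above, had 32.0 and 36.4 FPKM in Adult, against 560.3 and 509.6 FPKM at P5 (log2 change -3.93, limma adjusted p = 1.26e-05). The calpain gene Capn2 had 10.6 and 12.0 FPKM in Adult, against 54.0 and 49.9 FPKM at P5 (log2 change -2.11, limma adjusted p = 7.11e-05), and Cast, which encodes the calpain inhibitor calpastatin, was called higher (log2 change 0.57, limma adjusted p = 0.0437). Among NAD genes, Slc25a51, the mitochondrial NAD carrier, had 22.2 and 20.5 FPKM in Adult, against 38.3 and 51.5 FPKM at P5 (log2 change -1.02, limma adjusted p = 0.00184), and Nadk and Parp1 were called lower while Sirt1 was called higher. Bcl2l1, which encodes the survival protein Bcl-xL, had 46.9 and 49.3 FPKM in Adult and 46.9 and 52.8 FPKM at P5 and was not called. P5 against E18, 1 gene was called higher (Cast) and 1 lower (Sirt1), beside 10.5% of all genes called, and 0 were called when any 1 library was left out. Adult against E18, 3 were called higher and 13 lower, beside 25.3% and 34.4% of all genes (1 and 16 with TPM, beside 2224 and 8542 of 15810 genes).

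**Figure D5:**
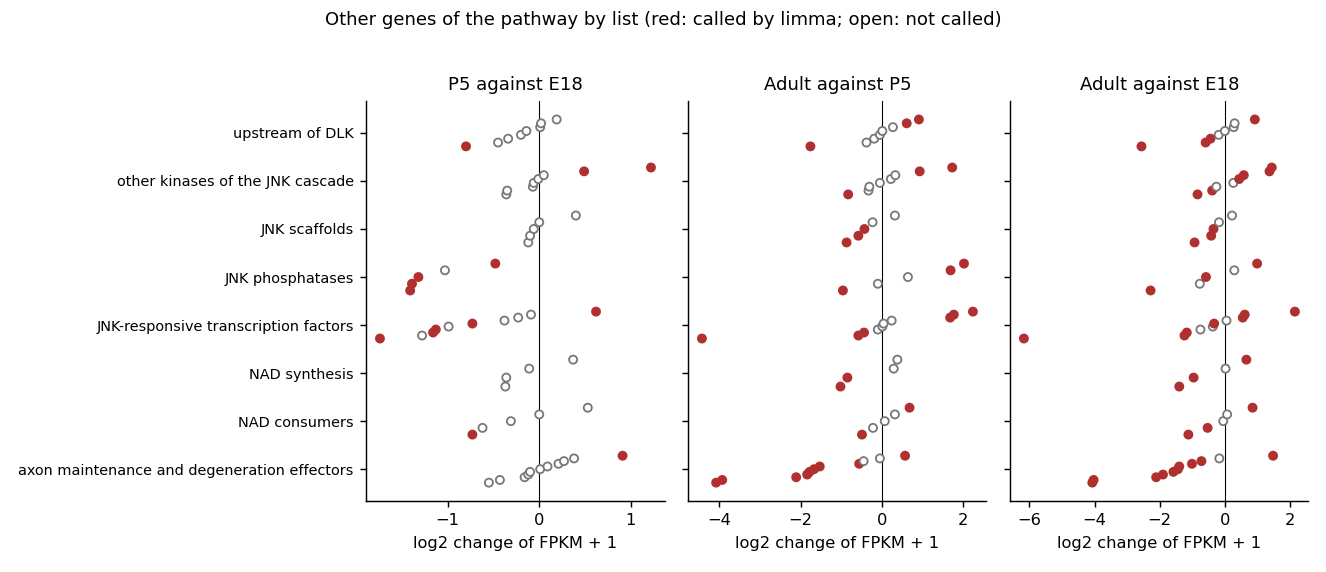
Log2 change of FPKM + 1 for each tested gene of 8 lists around the DLK, JNK and Sarm1 genes, by comparison; red points had an adjusted p under 0.05 in limma. JNK phosphatases lie below 0 in the P5 against E18 panel (4 of 5 called lower, beside 4.95% of all genes). Axon maintenance and degeneration effectors lie mostly below 0 in both Adult panels (8 of 11 called lower against P5, beside 33.7% of all genes).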

How the data were processed

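The authors deposited FPKM per isoform. HISAT2, the mm10 build (GRCm38), Cufflinks and Cuffdiff are named per the submitters' processing notes; versions are not given in the sources used here. Per the labels' protocols, libraries were made from polyA-selected RNA. An entry of 0.0001 in the table was read as 0. The highest value of every listed isoform is at least 1 FPKM, so rarer isoforms are not seen, and 9 other per-sample columns stayed unused. The columns of the P5 libraries share one header, so these are called a and b. FPKM carry no counts, so depth and counting error are unknown and precision rests on 2 libraries per age.

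All isoforms of a symbol were added up. limma 3.58.1 (R 4.3.3; eBayes with a variance trend) fitted log2(FPKM + 1) on age over all 6 libraries, for 14390 genes and, separately, 34941 isoforms with a mean of at least 1 FPKM. The scale understates the change of low genes. Tests were two-sided, with Benjamini-Hochberg adjustment over the whole table, and a call needs an adjusted p under 0.05; the fit was tested on simulated data. Intervals are 95% intervals from limma. There were 3 residual degrees of freedom, and a lone library of an age left by an alternative is assumed to vary like the others. Transcript types, exons and sequences come from GENCODE M21 (GRCm38), which holds 99.9% of the isoforms that the table equates with a reference transcript. How Cufflinks divides reads among overlapping isoforms bears on every isoform value and exon share.

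The genes followed and the lists were chosen with earlier results of these data known. Named from the lists were genes called in a comparison; Bcl2l1 was named after its values were seen. A gene that the lists hold is not reported here. Of the nearest profiles of Map3k12, only the first is named because the others carry clone names. Alternatives were another pseudocount, other filters, TPM, quantile, protein-coding and median scaling, fits of 2 ages, no variance trend, a replicate block and each library left out; summing protein-coding isoforms alone and counting the unannotated Mapk9 isoform were added after seeing the data.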

Additional observations from a re-analysis of the deposited data

How the results depend on the processing

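With 2 libraries per age, P5 against E18 rests on every library. Leaving out 1 library gave 0 genes of the DLK, JNK and Sarm1 set called, between 10 and 642 genes in all (1507 with every library; 10 without P5 library a, 28 without E18 replicate 1), between 0 and 8 of the pathway list, 0 of the NAD and axon list and between 3 and 18 isoforms (569 with every library). Adult against E18, the range was 2 to 5 genes of the set, 11 to 23 of the pathway list, 7843 to 15008 isoforms and 8 to 15 isoforms of the set. P5 against E18, TPM called 2 genes of the set and the fit without the variance trend 0; the fit of only these ages called 696 genes; the NAD and axon list had 1 call without the filter, with the protein-coding scaling and without the trend, and 0 with only these ages; isoform calls were 1040 at a mean of 5 FPKM and 916 with TPM, of which 2 and 2 in the set. Adult against P5, TPM called 8 of the set, beside 10844 of 15810 genes in all. At a mean of 5 FPKM there were 7640 isoform calls Adult against P5, 10 of them in the set, and 7707 Adult against E18. The Mapk9 exon share with the unannotated isoform was 28.1% at E18 and 51.7% in Adult.

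The following log2 changes took the other sign; none of them but Mapk10 Adult against E18 had been called with all isoforms and libraries, and the cause was not tested. P5 against E18, Map3k12 had -0.01 without E18 replicate 1 and -0.04 if P5 library a was left out (range without 1 library -0.04 to 0.28), Mapk8ip3 0.09 with protein-coding isoforms, and Nmnat2 0.04 with TPM and 0.04 without E18 replicate 2 (range -0.22 to 0.04). Adult against P5, Mapk10 had -0.68 with TPM, -0.33 with protein-coding isoforms, -0.02 without P5 library b and -0.04 without Adult replicate 2 (range -0.04 to 0.17); Mapk8ip3 had -0.74 and -0.18 in the same settings, -0.04 without P5 library a and -0.03 without Adult replicate 2 (range -0.04 to 0.07); Sarm1 had 0.02 with the protein-coding scaling and 0.18 with protein-coding isoforms. Adult against E18, Map3k12 had 0.12 with the protein-coding scaling, Mapk9 had -0.58 with TPM, -0.17 with protein-coding isoforms, -0.04 without E18 replicate 1 and -0.06 without Adult replicate 2 (range -0.06 to 0.14), Mapk10 had -0.20 with TPM, Mapk8ip3 had 0.20 with quantile normalization and 0.22 with the protein-coding scaling, and Sarm1 had 0.04 with protein-coding isoforms. Of 392 alternative values of single genes, 337 kept direction and call, 15 gained a call, 16 lost it and 24 took the other sign. The replicate differences of E18 and Adult had a correlation of 0.018 across genes. It rests on 1 difference per age and cannot decide whether replicate numbers pair the samples. With a replicate block, 8057 genes and 4 of the set were called Adult against E18. P5 has no replicate numbers in the table, so no other block could be fitted.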
